A study of Mus musculus with 10 samples.

Results

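The wide enhancer regions were the autosomal regions that the authors' table classes as enh, read here as enhancer, and whose stop lay 8000 bp or more beyond their start. They numbered 2419 of 32406 autosomal enhancer regions (7.46%) and of 50898 regions in all (4.75%). The rule used position and width, not the measured signal. The other 29987 autosomal enhancer regions are called narrower below, and 2502 autosomal promoter regions of the same width served as a second reference. Another 8 enhancer regions of this width on chromosome X were not members.

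H3K27ac, acetylation of lysine on the tail of histone H3, was measured by chromatin immunoprecipitation and sequencing (ChIP-seq) in cerebral cortex of 8-week-old C57BL/6J mice. Of 10 animals, 5 were heterozygous for a knockout of Dnmt3a, a de novo DNA methyltransferase (Het), and 5 were wild type (WT). Each Het mouse was paired with a WT mouse of its sex as its littermate. Of the 5 litters, 3 were of males: litters 650 and 119 (replicates 1 and 3) and the litter of replicate 5. The other 2 were of females, litters 651 and 141 (replicates 2 and 4). Litter numbers are given for replicates 1 to 4 only, and the pairing of replicate 5 was taken from the column names. The labels do not describe how the allele was made, and the description of Het replicate 5 carries the term cKO although its genotype label is heterozygous. The tissue was whole cortex, so fewer acetylated cells of a type and less acetylation per cell cannot be told apart. No gene annotation of the files' build, mm9, was used here, so regions are named by position and cortical marker genes were not analysed here.

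H3K27ac is laid down by the acetyltransferases p300 and CBP and marks active promoters and enhancers. Long stretches of it, often called super-enhancers or stretch enhancers, arise where many factor binding sites lie close together, and in many tissues they are found near genes of cell identity. DNA methylation deposited by Dnmt3a after birth is abundant in neurons, where it lies across gene bodies and enhancers.

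Wide enhancer regions carried more signal than narrower ones, and slightly more of it per kb. Values are pseudo-counts, which are read counts adjusted to 1 common library size. Averaged over the 10 animals, the median wide region held 246 pseudo-counts (range 86.3 to 5342), against 38.9 in narrower enhancer regions and 421 in promoter regions of the same width. Per kb of width the median was 21.1 (quartiles 17.7 and 25.9), against 17.6 (15.4 and 20.4) in narrower regions and 31.0 in wide promoter regions. The classes overlapped broadly in density: 830 wide regions (34.3%) lay above 23.9 per kb, the 90th percentile of narrower regions, and 575 (23.8%) lay below the narrower median. Width and density share the underlying peak, so these comparisons are descriptions without a test.

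Width ran from 8000 to 132383 bp with a median of 10902 bp, against 2230 bp in narrower regions. Density rose by steps along the width scale. Its median was 17.2 per kb in regions under 2 kb, 19.0 from 6 to 8 kb, 19.9 from 8 to 10 kb, 21.2 from 10 to 15 kb, 21.9 from 15 to 20 kb and 24.1 in the 273 regions of 20 kb or more. The rank correlation of width and density across regions was 0.21 among the 2419 wide and 0.13 among the 29987 narrower regions, which all come from the same 10 libraries. Just inside the limit, 126 regions of 8000 to 8199 bp had a median of 20.1 per kb. Just outside it, 141 regions of 7800 to 7999 bp had 19.0 per kb. The difference between these 2 groups was not tested.

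**Figure D1:**
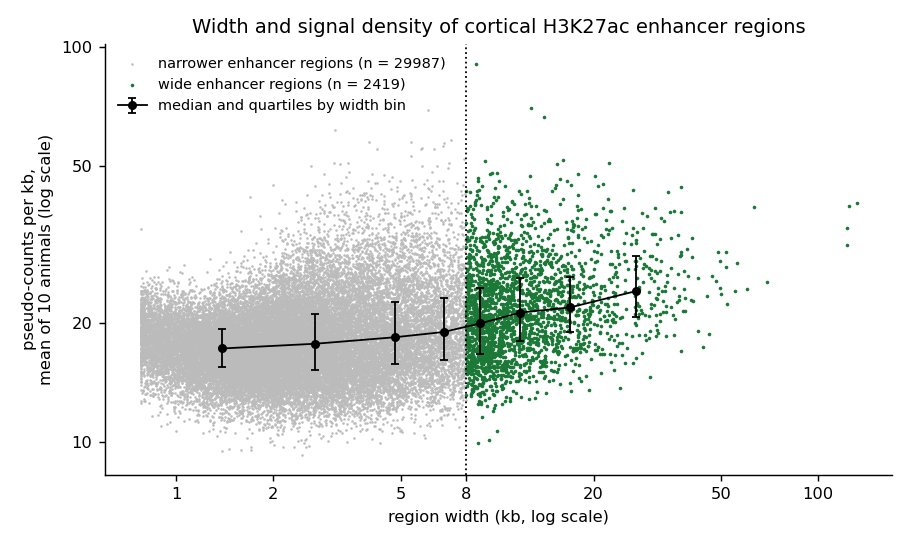
Each point is 1 autosomal enhancer region, with its width in kb on a log axis and its mean pseudo-counts per kb over 10 animals on a log axis; black points and bars are medians and quartiles by width bin, and the dotted line marks 8 kb. Median density climbs from 17.2 per kb under 2 kb to 24.1 per kb at 20 kb or more, while the clouds of wide and narrower regions overlap.

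The wide regions covered 32.6 Mb, or 28.5% of all enhancer bases, and held 33.0% ± 1.22 (SD, n = 10) of the enhancer signal. All of the 324 strongest enhancer regions by summed signal (the top 1%) were wide, as were 1473 of the top 1620 (90.9%). Ranked by density instead, 106 of the top 324 (32.7%) and 444 of the top 1620 (27.4%) were wide. The 10 widest regions held 3.70% of the wide regions' signal in 2.64% of their bases.

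The 4 widest regions stood apart from all others, at 123187 to 132383 bp. The widest, chr14:64734988-64867371, spanned 132383 bp at 40.4 pseudo-counts per kb. It held 5370, 5348, 4799, 6211 and 5330 pseudo-counts in WT replicates 1 to 5 and 4491, 5541, 5586, 5629 and 5120 in Het replicates 1 to 5. The genotypes overlapped, with the highest value in WT replicate 4 and the lowest in Het replicate 1. The next 3 were chr9:48511903-48637611 at 39.7 per kb, chr12:101524727-101648564 at 34.8 per kb and chr4:46739257-46862444 at 31.6 per kb. The fifth in width, chr6:135729234-135798968, spanned 69734 bp.

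The 5 densest wide regions were 8587 to 16096 bp wide. At the top was chr4:154605585-154614172, 8587 bp wide and 91.0 per kb, which lay 2.03 kb from the nearest promoter region. It held 731, 685, 892, 884 and 884 pseudo-counts in WT and 635, 727, 879, 788 and 709 in Het animals, and the genotypes overlapped. It was followed by chr10:13926251-13938976 (70.2 per kb), chr12:83169560-83183542 (66.5), chr8:126395813-126411909 (51.9) and chr5:114037297-114046441 (51.6). The sparsest were chr2:97425948-97434671 at 9.89 per kb, chr16:89985341-89994787 at 10.1 and chr1:191584854-191594825 at 10.6. In the sparsest, 54.2 to 117 pseudo-counts were found in WT animals and 57.0 to 118 in Het animals, with both low ends in litter 119 (replicate 3).

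Wide regions sat in denser surroundings than narrower ones. The nearest other enhancer region was a median 2.95 kb away, against 7.35 kb for narrower regions, and 37.4% against 18.9% had an enhancer region within 2 kb. The nearest region classed as promoter or uaProm (a term that no source used here defines) was 24.2 kb away against 31.6 kb. Still, 348 wide regions (14.4%) lay more than 100 kb from any promoter or uaProm region, against 20.9% of narrower ones. The table holds 32614 enhancer regions while their numbering runs to 45320, so distances to enhancer regions are upper bounds. Distances to promoter or uaProm regions are upper bounds too if such regions are also absent, which was not examined here.

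Wide regions also lay near each other. The nearest other wide region was a median 44.6 kb away, against 202 kb from a narrower region to its nearest wide one. Joining wide regions with gaps of at most 50 kb gave 1605 chains, 1160 of them a single region, and 1259 wide regions (52.0%) were in a chain of at least 2. Of these chains, 77 had 4 or more members. The largest by number were chr12:30228985-30607104 and chr14:24436232-24806419, with 15 wide regions each. The chromosome 12 chain held 221 kb of wide enhancer within 378 kb, 17 narrower enhancer regions and 0 promoter regions in the table. Its wide regions ranged from 13.6 to 38.4 per kb, so 1 chain spanned low and high density. Chromosome 12 also had the highest share of wide regions among its enhancer regions (9.76%) and chromosome 3 the lowest (5.86%).

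Neighbouring wide regions varied together from animal to animal. The median correlation of 2 wide regions over the 10 animals, after removing each genotype's mean, was 0.47 for gaps under 5 kb (243 pairs) and 0.44 from 5 to 50 kb (843 pairs). It was 0.27 from 50 to 500 kb, 0.088 from 0.5 to 5 Mb and 0.058 from 5 to 50 Mb. Across the 5 litter means alone the medians fell from 0.53 under 5 kb to 0.068 at 5 to 50 Mb, and across the 5 Het minus WT differences from 0.44 to 0.040. All pairs share the same libraries, and no test was made.

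The next question was whether the wide regions as a class shifted between animals. Their share of enhancer signal was 32.6%, 32.4%, 32.9%, 34.8% and 33.0% in WT replicates 1 to 5 and 30.5%, 33.0%, 34.7%, 33.6% and 32.4% in Het replicates 1 to 5. The groups overlapped, with means of 33.1% ± 0.966 for WT and 32.9% ± 1.54 for Het (SD, 5 animals each), and the lowest and highest animals were Het replicate 1 and WT replicate 4. The median density of wide regions exceeded that of narrower ones in 10 of 10 animals. Their ratio was lowest, 1.06, in Het replicate 1 and highest, 1.33, in WT replicate 4, with a mean of 1.21 ± 0.0793 (SD, n = 10).

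The narrower regions moved more than the wide ones in this balance. Relative to the mean of all animals, the median log2 deviation of wide regions stayed between -0.062 (WT replicate 3) and 0.056 (Het replicate 5). Narrower regions were lowest in WT replicate 4 (-0.15) and highest in Het replicate 1 (0.20), and wide promoter regions lay lowest in Het replicate 1 (-0.098) and highest in Het replicate 3 (0.068). In every animal but WT replicate 3 the wide enhancer regions lay between narrower enhancers and wide promoters, which deviated in opposite directions in the animals with the largest shifts. As a share of all autosomal signal the wide regions were steadier, between 13.2% and 14.2%. Whether antibody or library quality moved with these shifts was not tested.

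**Figure D2:**
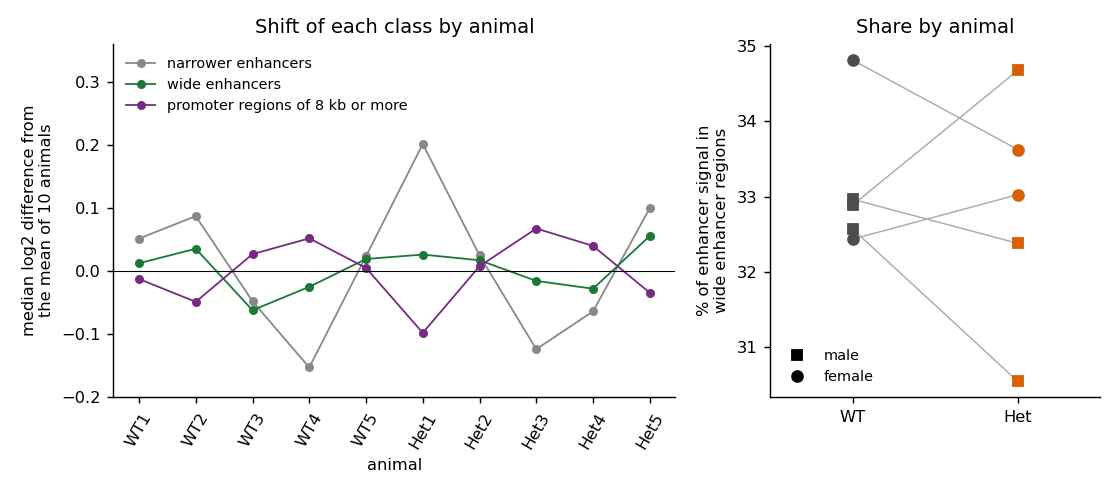
Left, the median log2 difference of each region class from the mean of 10 animals, by animal (WT or Het with its replicate number); right, the percentage of enhancer signal that lies in wide regions, with lines joining littermates, grey for WT, orange for Het, squares for males and circles for females. Narrower enhancers spread from -0.15 to 0.20 and wide enhancers from -0.062 to 0.056, and the shares of WT and Het animals overlap.

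Between Het and WT littermates no wide region passed the test. With limma on log2(value + 1), sex and genotype as terms and Benjamini-Hochberg adjustment over all regions, 0 of 2419 wide regions were called at 0.05, against 1 of 50898 regions in all (0.00196%). With the litter as a block the count was again 0, against 3 regions in all (0.00589%). At an unadjusted p under 0.05 there were 26 wide regions (1.07%), 17 of them higher in Het, where all regions gave 2.10%. With the block there were 103 (4.26%, all regions 4.63%), and limma-voom on recovered reads gave 31 (1.28%, all regions 2.21%). After adjustment limma-voom called 0 wide regions and 0.00196% of all regions. By the FDR in the authors' deposited table, 0 wide regions were under 0.05 (all regions 0.00393%). The lowest FDR of a wide region in the authors' deposited table was 1, and 17 wide regions had p under 0.05 (0.703%, all regions 1.76%).

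Fold changes were small and narrowly spread. The median log2 fold change of the wide regions, Het minus WT, was 0.0097, beside 0.031 in narrower regions, -0.014 in wide promoter regions and 0.0092 over all regions. With median-of-ratios scaling it was -0.012 and after abundance-dependent loess 0.025, so its sign depends on the scaling. The fold changes had an SD of 0.079 across wide regions and 0.17 across narrower ones, and no wide region moved by more than 0.32 on the log2 scale. In the authors' deposited table the medians were 0.012 for wide and 0.037 for narrower regions.

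Wide regions were measured with less error than narrower ones. The median standard error of a log2 fold change was 0.10 in wide and 0.18 in narrower regions, and the SD between animals within a genotype was 0.159 and 0.280 on the log2 scale. The 95% interval of the Het over WT fold lay wholly within 1.5-fold in 2419 of 2419 wide regions (100%), against 71.2% of narrower and 79.6% of all regions. It lay within 1.2-fold in 1285 wide regions (53.1%), against 3.88% of narrower and 14.3% of all regions. Among the 10% of enhancers with most signal, 56.1% of 2209 wide and 44.4% of 1032 narrower regions were bounded within 1.2-fold. Their median signal still differed, at 260 and 171 pseudo-counts. In data simulated for the Het against WT comparison over 50898 regions, the fit recovered 0% of wide regions changed 1.2-fold, 70% at 1.5-fold and 100% at 2-fold. The simulated animals were independent, without litter or sex differences. Their dispersion was set above the 0.0151 found for the real values. These rates therefore describe the simulation and are not the power of the real data.

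The littermate pairs did not share a direction. In the litters of replicates 1 to 5 the median log2 difference of wide regions, Het minus WT, was 0.0040, -0.030, 0.050, -0.00078 and 0.043, with a mean of 0.013 (SE 0.015, n = 5). That of narrower regions was 0.14, -0.068, -0.073, 0.084 and 0.078 (mean 0.033, SE 0.044). Both means were smaller than their standard errors. The wide regions shifted less than the narrower ones in each of the 5 litters, and in the litters of replicates 3 and 4 the classes had opposite signs. The difference of the 2 medians, wide minus narrower, was -0.14, 0.038, 0.12, -0.085 and -0.036 (mean -0.020, SE 0.046), positive in 2 of 5 litters.

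Counts of regions that moved one way in every litter were close to the background. In Het, 87 wide regions were higher in 5 of 5 litters (3.60%, all regions 3.53%) and 59 were lower (2.44%, all regions 2.46%). All Het animals lay above all WT animals in 4 wide regions (0.165%, all regions 0.226%) and below them in 2 (0.0827%, all regions 0.149%).

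The wide regions with the smallest p are given for their values. Highest in Het relative to WT was chr14:12519545-12527554, with 99.2, 101, 98.7, 64.5 and 105 pseudo-counts in WT and 145, 93.4, 104, 112 and 130 in Het replicates 1 to 5. The groups overlapped, and WT replicate 4 was well below the other WT animals. Its log2 fold change was 0.32 ± 0.12 (SE), with an adjusted p of 1.00 by limma. At chr10:19957723-19966563 the values were 137, 134, 114, 131 and 144 in WT and 145, 164, 143, 164 and 176 in Het animals, higher in Het in 5 of 5 litters and overlapping only at the edge. Its log2 fold change was 0.26 ± 0.10 (SE; limma adjusted p = 1.00).

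Of the regions lower in Het, chr1:94915427-94923708 held 147, 154, 121, 151 and 178 pseudo-counts in WT and 136, 123, 100, 108 and 139 in Het animals. It was lower in Het in 5 of 5 litters while the groups overlapped, with a log2 fold change of -0.31 ± 0.12 (SE; limma adjusted p = 1.00, and 0.954 with the litter block). At chr9:86745177-86754833 the values were 193, 198, 185, 176 and 170 in WT and 164, 154, 147, 166 and 157 in Het animals. Here every Het animal lay below every WT animal, yet the log2 fold change was only -0.23 ± 0.098 (SE; limma adjusted p = 1.00). Among the 6 largest chains of wide regions, 5 had fitted Het minus WT log2 fold changes on both sides of 0, as in chr12:30228985-30607104 (-0.19 to 0.24). The sixth, chr9:45261327-45488668, had values from 0.0086 to 0.22 over its 10 wide regions, 0 of them called; it is named here after its values were seen, and neighbouring regions are not independent.

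**Figure D3:**
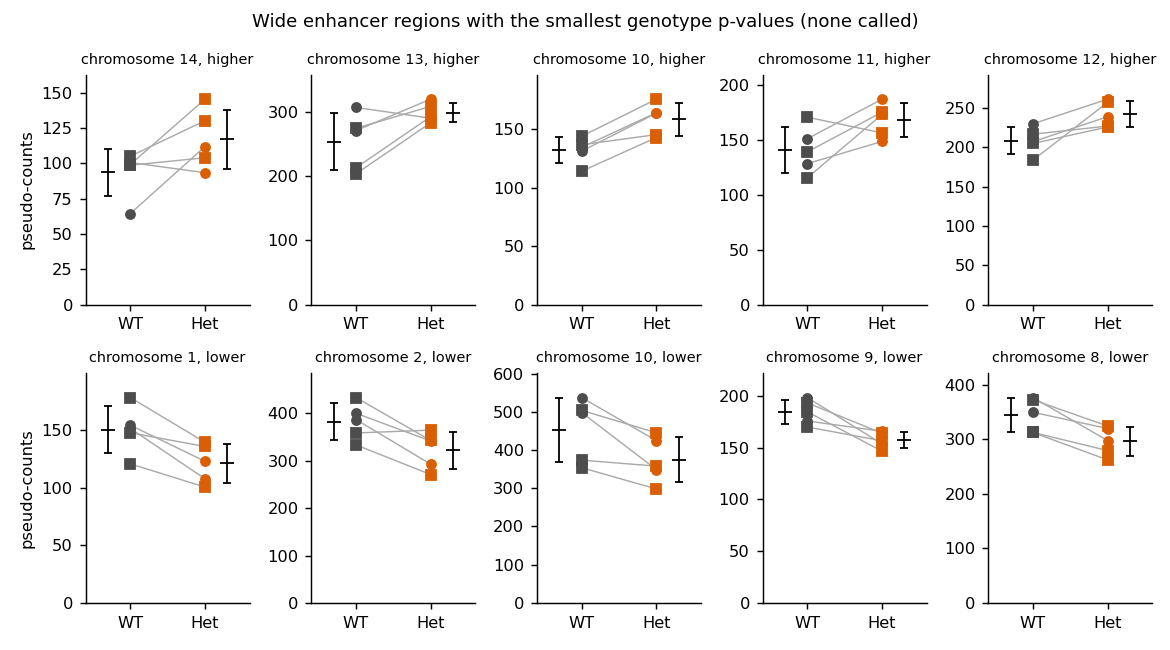
Pseudo-counts of the 5 wide regions with the smallest p in each direction, 1 panel per region named by chromosome, for 5 WT (grey) and 5 Het (orange) animals; lines join littermates, squares are males, circles females, and black marks are group means with SD. The differences are small against the axis that starts at 0, and 0 of these regions were called.

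Fold changes followed signal density in wide and narrower regions alike. When the wide regions were divided into 5 equal groups by signal per kb, the median log2 fold change, Het minus WT, was 0.035, 0.027, 0.017, 0.00078 and -0.018 from the sparsest (9.89 to 17.1 per kb) to the densest (27.4 to 91.0 per kb). Narrower regions of the same density had 0.055, 0.032, 0.014, -0.0019 and -0.018. The litters did not agree on the sparsest group, which had a median above 0 in 3 of 5 litters, while the densest had 1 of 5. The male minus female medians, over other divisions of the same animals, showed the same order with a wider range: 0.083, 0.026, 0.0050, -0.043 and -0.10 for wide regions and 0.11, 0.044, 0.0054, -0.043 and -0.099 for narrower ones. These medians have no test.

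**Figure D4:**
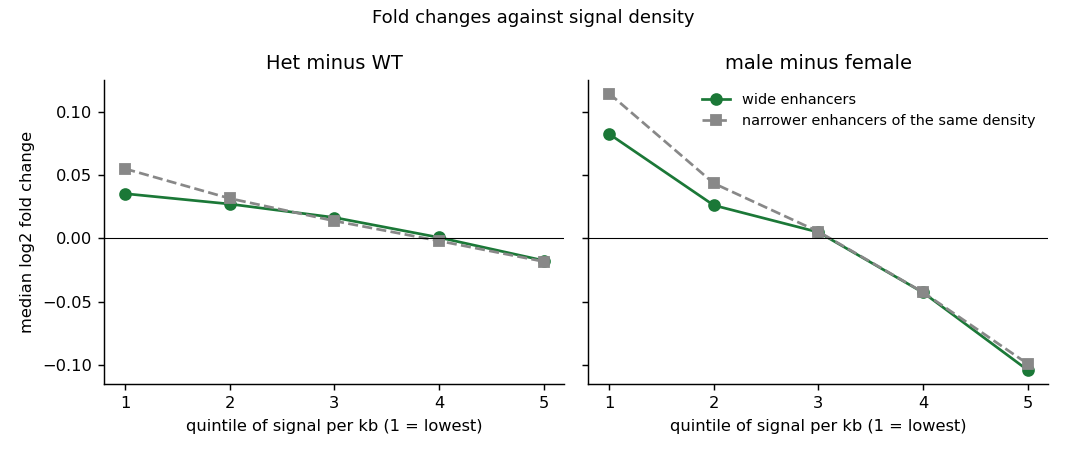
Median log2 fold change (vertical axis) by quintile of signal per kb (horizontal axis, 1 lowest), for wide enhancers in green and narrower enhancers of the same density in grey; left Het minus WT, right male minus female. Both classes run downward together, from 0.035 to -0.018 for wide regions on the left and from 0.083 to -0.10 on the right.

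Between the sexes, a small set of wide regions differed. Each sex is a set of whole litters, so sex and litter cannot be told apart. The limma fit without a litter term counts littermates as independent animals. Its p-values for sex, and the SDs over 6 males and 4 females, thus rest on 3 male and 2 female litters. In the same limma fit, 58 wide regions were called (2.40%, all regions 0.904%), 57 of them higher in males (2.36%, all regions 0.841%) and 1 lower (0.0413%, all regions 0.0629%). Narrower enhancer regions gave 124 calls (0.414%) and wide promoter regions 89 (3.56%). At an unadjusted p under 0.05 there were 506 wide regions (20.9%, all regions 13.2%). All males lay above all females in 94 wide regions (3.89%, all regions 2.28%) and below them in 36 (1.49%, all regions 0.866%).

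The share called rose with width up to the bin of 10 to 15 kb and was lower in the 2 wider bins. It was 0.0312% under 2 kb, 0.339% from 2 to 4 kb, 1.18% from 4 to 6 kb and 1.80% from 6 to 8 kb. From there it was 2.13%, 2.68%, 2.60% and 2.20% in the 4 wide bins, which held 20, 24, 8 and 6 calls. The standard error of the sex difference, with a median of 0.10 in wide and 0.18 in narrower regions, moved with width as well. Among the 10% of enhancers with most signal, 2.22% of wide and 0.969% of narrower regions were called. These groups were not matched in signal, with medians of 260 and 171 pseudo-counts. The count depended on single animals, and the share over all regions moved with it. Without WT replicate 4, Het replicate 2 or Het replicate 4 it was 0 (all regions 0.0275% to 0.0373%). Without WT replicate 3, Het replicate 1 or Het replicate 5 it was 4 (0.165%, all regions 0.177% to 0.187%), and without WT replicate 5 it was 8 (0.331%, all regions 0.251%). Without WT replicate 2 it was 100 (4.13%, all regions 1.92%), and without Het replicate 3 it was 325 (13.4%, all regions 7.03%). With the litter as a random effect only 1 wide region was called (0.0413%, all regions 0.0884%), as with median-of-ratios scaling (0.0413%, all regions 0.185%). Under both settings the wide share was below that of all regions, but it rests on 1 region and says little about the class. After abundance-dependent loess the count was 105 (4.34%, all regions 1.67%).

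The 57 regions higher in males had log2 fold changes from 0.35 to 0.61 (median 0.46), lay on 19 chromosomes and had a median density of 18.9 per kb, below that of all wide regions. Relative to the mean of the male litters, their median was -0.52 in litter 141 and -0.38 in litter 651, the 2 female litters, and -0.082, -0.035 and 0.12 in male litters 119, 650 and that of replicate 5. The sex contrast chose these regions, so low values in the female litters restate that choice and are given as a description; litter 141 was the lowest of the 5 in 49 of the 57. Without litter 141 the count of calls was 0 (all regions 0.00589%), and without litter 651 it was 42 (1.74%, all regions 0.866%), of which 23 were among the 58. Without litter 119 it was 340 (14.1%, all regions 7.83%), without litter 650 it was 1 (0.0413%, all regions 0.110%) and without the litter of replicate 5 it was 2 (0.0827%, all regions 0.0570%).

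**Figure D5:**
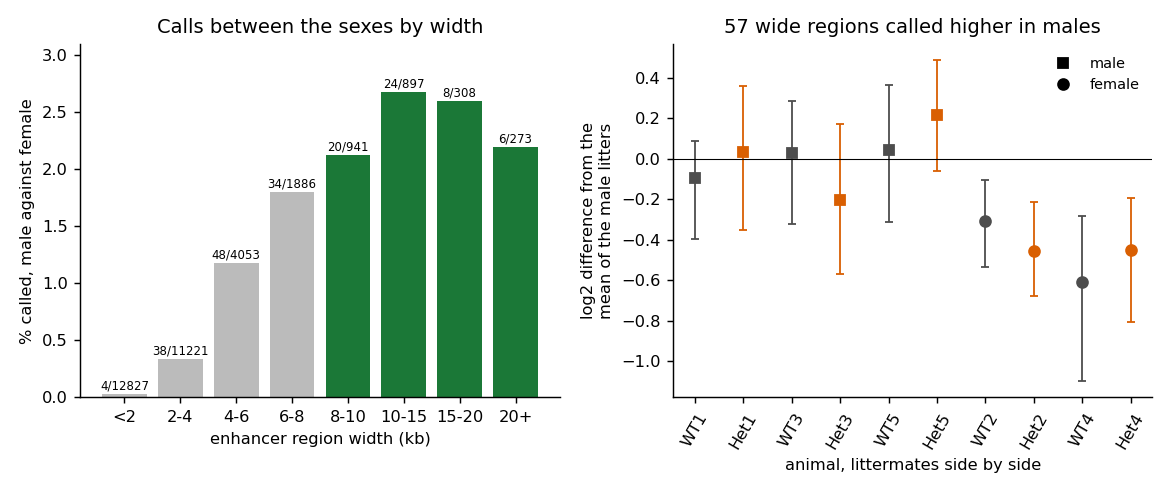
Left, the percentage of enhancer regions called between males and females by width bin in kb (grey narrower, green wide), with the number called over the number of regions above each bar; right, for the 57 wide regions called higher in males, the median log2 difference of each animal from the mean of the male litters, with bars from the lowest to the highest region, squares for males and circles for females, grey for WT and orange for Het. The share levels near 2% above 8 kb. The sex contrast chose the 57 regions, so the lower medians of the 4 females restate that choice. The ranges of males and females overlap, and all males lay above all females in 36 of the 57 regions.

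The region still called with litter as a random effect and with median-of-ratios scaling was chr9:71593384-71603841, 10457 bp wide and 12.03 kb from the nearest promoter region. Males had 171, 172 and 189 pseudo-counts (WT replicates 1, 3 and 5) and 204, 149 and 217 (Het replicates 1, 3 and 5), and females had 132 and 111 (WT replicates 2 and 4) and 119 and 121 (Het replicates 2 and 4). All males lay above all females, at 184 ± 24.8 (SD, n = 6) against 121 ± 8.86 (SD, n = 4). The log2 fold change was 0.59 ± 0.11 (SE; limma adjusted p = 0.00768, and 0.0288 with litter as a random effect). Without litter 141 the adjusted p was 0.415, and it was between 0.0562 and 0.0711 without WT replicate 4, Het replicate 2, Het replicate 4, litter 650 or the litter of replicate 5.

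The largest fold change among the calls was at chr16:35177314-35194834, with 243, 310 and 357 pseudo-counts in WT males, 334, 253 and 422 in Het males, 216 and 146 in WT females and 257 and 222 in Het females. The sexes overlapped there, and the log2 fold change was 0.61 ± 0.13 (SE; limma adjusted p = 0.0236). The call was lost with litter as a random effect (limma adjusted p = 0.0710) and with median-of-ratios scaling (limma adjusted p = 0.0510). It was also lost without WT replicates 3, 4 or 5, Het replicates 1, 2, 4 or 5, or litters 141, 650 or that of replicate 5 (limma adjusted p from 0.0555 to 0.715). A neighbouring wide region 9.26 kb away, chr16:35204089-35218630, varied with it over the 10 animals (r = 0.93) and was not called (log2 fold change 0.40 ± 0.16, limma adjusted p = 0.268). Both were among the 5 wide regions with the largest spread between litter means. The widest spread, 1.33 on the log2 scale, was at chr2:26395638-26406097. That region held 239 and 246 pseudo-counts in the WT and Het animals of the replicate 5 litter and 87.1 and 106 in those of litter 141, the ends of the range for which it was chosen. Between them lay 142, 144 and 142 in WT replicates 1, 2 and 3 and 189, 121 and 131 in Het replicates 1, 2 and 3.

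The 1 region called lower in males was chr10:109034717-109046004, 155 kb from the nearest promoter region. Males ranged from 179 to 228 pseudo-counts (200 ± 16.5, SD, n = 6) and females from 255 to 303 (272 ± 21.5, SD, n = 4), without overlap. The log2 fold change was -0.44 ± 0.10 (SE; limma adjusted p = 0.0251, and 0.0934 with litter as a random effect). It was not called with median-of-ratios scaling (limma adjusted p = 0.0534) or without any 1 animal other than WT replicate 1 or Het replicate 3 or any 1 litter other than 119 (limma adjusted p from 0.0507 to 0.451). Next in p were 3 regions of 34641 bp or more that did not pass. Of these, chr4:46739257-46862444 held 3550 ± 323 pseudo-counts in males and 4398 ± 238 in females (limma adjusted p = 0.0526). On chromosome 6, chr6:135729234-135798968 held 1601 ± 180 and 2022 ± 160 (limma adjusted p = 0.0517), and chr6:135837564-135872205, 38.6 kb further on, 1176 ± 258 and 1553 ± 109 (limma adjusted p = 0.0530). The 2 chromosome 6 regions varied together over the 10 animals (r = 0.94).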

How the data were processed

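The submitters' processing notes name Bowtie2, edgeR and the build mm9 as what the authors used; no source used here gives versions or says how regions were called and classed. What was deposited is 1 signal value per region and animal, named pseudo-counts in the file headers and scaled to equal library size. By its headers, the deposited table also has a log2 fold change, a p-value and an FDR per region. Coordinates are as in the table.

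Inverting the adjustment, with a mean per genotype and a common dispersion of 0.0151, returned whole reads within 0.1 read for 100% of values; the steps were not linear, so reads served only for depth and a limma-voom alternative. The values thus carry the genotype labels, and the scaling would hide a uniform change. Reads in regions ran from 2771534 (WT replicate 5) to 8453140 (Het replicate 2), and the median wide region had 124 to 371 reads per library.

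limma 3.58.1 (trend, robust, R 4.3.3) was fitted to log2(value + 1) over 50898 regions. The scale slightly understates changes of weak regions. The labels name littermates, so replicate numbers pair animals; the table's column names join the litter of replicate 5. Over the wide regions, littermates' deviations from their genotype means had correlations of 0.38, 0.38, 0.029, 0.60 and 0.69 in replicates 1 to 5. Het replicates 2 and 3 correlated more with a WT animal of another litter (0.47 and 0.45) than with their own littermate. The correlations thus bear out the pairing only in replicates 1, 4 and 5. The fit was tested on simulated data. Members and rules were chosen with earlier results of these data known. Named regions were the 5 widest, densest and sparsest, the 5 nearest the width limit, the 5 with the smallest p per direction for genotype, the 5 with the largest fold per direction among calls for sex (smallest p where fewer passed), and the 5 with the largest spread of litter means; the text gives some of them. Alternatives covered pseudocounts, scalings, a filter at a mean of 20, voom, litter terms, widths, thresholds and leaving out animals or litters. Sequences and the planned marker genes were not used here, for want of a matching build.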

Additional observations from a re-analysis of the deposited data

Results flagged for a closer look

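WT replicate 4 lay apart from the other WT animals in 3 results. Its share of enhancer signal in wide regions was 34.8%, where the other 4 lay between 32.4% and 33.0%. At chr5:114037297-114046441, among the densest wide regions, it held 622 pseudo-counts against 425 to 480. At chr14:12519545-12527554, the wide region with the largest fitted rise in Het, it held 64.5 against 98.7 to 105. In all, 100 groups of 4 to 6 animals were examined for such a gap, 3 were picked out, and chance picks out about 1 in 20.

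At chr2:7295022-7307624 the mean Het minus WT difference had opposite signs in the sexes, and the region was picked out for this. The log2 difference averaged 0.20 in the 3 male litters (0.12 to 0.28) and -0.16 in the 2 female litters (-0.32 to -0.0096). The Het minus WT difference was thus 0.36 higher in males than in females. The signal itself was lower in males, with a mean of 192 pseudo-counts against 250 in females. Each sex is a set of whole litters, so sex and litter cannot be told apart here. This difference between the sexes in the Het minus WT difference was not tested.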

How the results depend on the processing

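Calls between Het and WT stayed at 0 among wide regions under each alternative run, including the replicate block. Over all regions the block moved the genotype calls from 1 to 3, and with litter as a random effect there were 2. The random effect also took the sex count among wide regions from 58 to 1. That count was also 1 with median-of-ratios scaling, 105 after loess, 125 at a threshold of 0.10, 92 for widths of 6000 bp or more and 38 for 10000 bp or more. It ran from 0 to 325 when single animals were left out, and was 340 without litter 119, 0 without 141, 1 without 650 and 2 without the litter of replicate 5. The median log2 fold change between the sexes was -0.0095 as reported, -0.049 with median-of-ratios scaling and 0.027 after loess, which moved the median over all regions from 0.027 to -0.012 and -0.013. The wide share of enhancer signal was 44.6% in WT and 44.3% in Het at 6000 bp, 25.4% and 25.1% at 10000 bp, 34.1% in WT among regions with a mean of 20 or more, and 13.8% in both of all autosomal signal. The causes were not tested. The Het minus WT median ran from -0.012 to 0.025 over the scalings and from -0.0061 to 0.025 without single animals. Of 460 comparisons of named regions with an alternative, 372 kept their side of the threshold, 71 lost it, 17 gained it and 0 reversed. All 71 losses fell on the named regions called between the sexes. The other named regions, with every genotype region among them, had no call to lose. The 372 therefore do not measure how stable the calls were. The shallowest library, WT replicate 5, had a median of 124 reads per wide region and at least 32. Whether depth limited the sparsest regions was not tested.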
